A study of Mus musculus with 9 samples.

Results

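Visceral adipose tissue (VAT) was compared with subcutaneous adipose tissue (SAT) of mice on a high-fat diet (HFD) in 6 small RNA libraries, 3 per depot, out of 9 in the series. Of the 1251 miRNAs in the deposited table, those described are the 27.4% left after 908 were set aside that exceeded the table's lowest value in fewer than 3 of its 9 columns, counted over all depots. The 6 libraries came from male C57BL/6J mice, wild type, that were 5 to 6 weeks old when they went on a diet with 45% of energy from fat, 20% from protein and 35% from carbohydrate, and that had eaten it for 11 weeks. VAT was the epididymal and SAT the inguinal depot, taken after a 4 h fast at 16 to 17 weeks of age, and no lean group was sequenced. The VAT libraries carry the numbers 14, 17 and 20 and the SAT libraries 14, 19 and 20. The sources used here do not say whether a number stands for a mouse. The paper describes its 3 replicates per depot as biological. If a number stands for a mouse, VAT 14 and SAT 14 share a mouse, as do VAT 20 and SAT 20. The test used here leaves such pairing out. If libraries of the same depot were not separate animals, p values would measure technical spread.

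A miRNA is a short RNA that guides an Argonaute protein to messenger RNAs, usually by pairing of its seed, bases 2 to 8, with the message, which is then repressed or degraded. A hairpin precursor gives a strand from its 5' arm (5p) and another from its 3' arm (3p), of which often only the more abundant is the main guide. Adipose tissue holds adipocytes and their progenitors, and also macrophages, other leukocytes, endothelium and blood, and visceral fat of obese mice is known for its macrophages. In such bulk samples, fewer cells of a type and less RNA per cell cannot be told apart.

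Sequences of the mature miRNAs on which the comparison turns are given 5' to 3' from RefSeq (GRCm38.p6), with the seed in capitals. Those higher in VAT with the largest changes, or from loci where several miRNAs moved, were as follows.
miR-511-3p: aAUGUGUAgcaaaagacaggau
miR-342-5p: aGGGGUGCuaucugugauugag
miR-22-3p: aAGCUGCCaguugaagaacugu
miR-222-3p: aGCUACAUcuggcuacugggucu
miR-221-3p: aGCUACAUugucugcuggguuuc
miR-146b-5p: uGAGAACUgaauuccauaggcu
miR-451a: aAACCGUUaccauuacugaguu
miR-144-5p: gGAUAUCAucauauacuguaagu
miR-15a-5p: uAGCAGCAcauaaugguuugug
miR-27b-3p: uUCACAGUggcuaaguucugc
miR-223-3p: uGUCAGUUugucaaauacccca
miR-199a-3p: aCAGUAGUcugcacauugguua
Those lower in VAT included the following, while miR-5105 and miR-5099 are named without a sequence.
miR-335-5p: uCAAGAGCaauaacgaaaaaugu
miR-25-5p: aGGCGGAGacuugggcaauugc
miR-1843a-3p: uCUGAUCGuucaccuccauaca
miR-672-5p: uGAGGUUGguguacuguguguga
miR-301a-3p: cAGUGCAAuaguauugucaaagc
miR-296-5p: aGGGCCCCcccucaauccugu
miR-615-3p: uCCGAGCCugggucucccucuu
miR-193a-5p: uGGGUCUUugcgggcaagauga
miR-125a-5p: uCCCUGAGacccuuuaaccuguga
miR-423-3p: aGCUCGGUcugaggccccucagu
miR-103-3p: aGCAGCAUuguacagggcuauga
The let-7 family members follow because they share a seed and nevertheless differed in opposite directions.
let-7a-5p: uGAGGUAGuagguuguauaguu
let-7b-5p: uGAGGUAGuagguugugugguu
let-7c-5p: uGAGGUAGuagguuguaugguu
let-7d-5p: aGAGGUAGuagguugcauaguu
let-7e-5p: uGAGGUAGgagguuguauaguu
let-7f-5p: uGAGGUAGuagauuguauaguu
let-7g-5p: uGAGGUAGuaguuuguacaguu
let-7i-5p: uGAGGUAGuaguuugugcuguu
miR-98-5p: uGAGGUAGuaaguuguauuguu

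The deposited values are log2 values without read counts, so the depth of the libraries is unknown. The lowest value, listed for a miRNA that was not seen, was 3.32 in every library, and the highest was 18.67. The smallest value above the lowest was 3.36, 3.62 and 3.52 in VAT 14, VAT 17 and VAT 20, and it was 4.13, 5.20 and 4.52 in SAT 14, SAT 19 and SAT 20. A low level that a VAT library lists with a value of its own therefore has no value in SAT between the lowest and these steps. Above the lowest value were 349, 323 and 332 miRNAs in the VAT libraries and 285, 240 and 266 in the SAT libraries. The VAT mean exceeded the SAT mean by 71 miRNAs (exact permutation test, two-sided p = 0.1, the smallest that 3 against 3 libraries allow). How many miRNAs exceed a higher value is nearly fixed by the normalization, which gives a rank about the same value in each library, so these counts do not place the difference at any level.
Some miRNAs of other cell types stood apart in single libraries. The skeletal muscle miRNA miR-133a-3p was 9.85, 12.59 and 17.20 in VAT 14, VAT 17 and VAT 20, and 9.85, 10.79 and 9.85 in SAT 14, SAT 19 and SAT 20. In the brown fat libraries it was 10.10 to 18.67. Other muscle miRNAs differed in VAT 20, where miR-133b-3p was 9.76 and miR-133a-5p 7.28, but miR-1a-3p only 3.83. MiR-1a-3p was at the lowest value in the other VAT and SAT libraries, and miR-206-3p had a range of 0.30 within VAT. The epithelial miR-205-5p was 3.63, 5.24 and 10.02 in VAT and 14.31, 5.60 and 6.48 in SAT, where SAT 14 was far above the others. The lymphocyte miR-150-5p was 16.72 in SAT 20 and 12.50 to 14.11 in the other 5 libraries. The 32 miRNAs of the list of testis and epididymis, the organ next to epididymal fat, were at the lowest value in all 6 libraries.

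**Figure D1:**
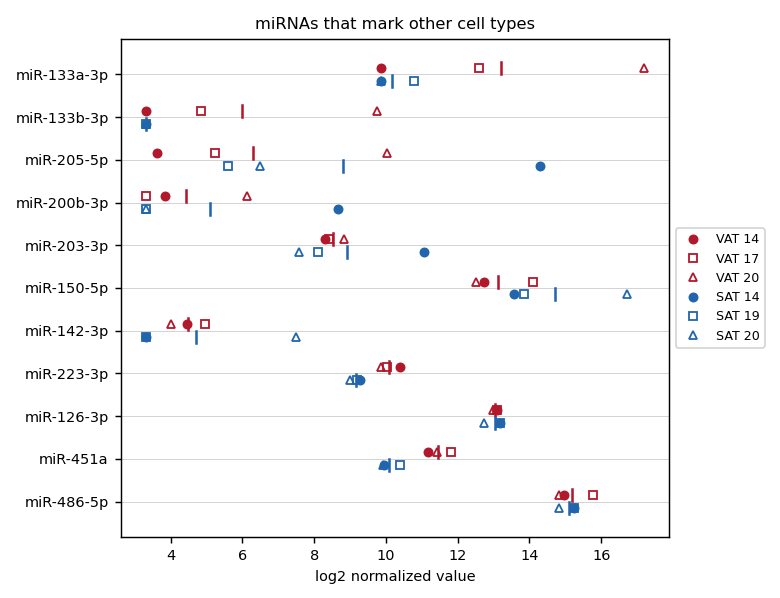
Log2 normalized values (x axis) of 11 miRNAs that mark muscle, epithelium, leukocytes, endothelium and red cells, with a symbol per library and a bar at the depot mean. MiR-133a-3p stood at 17.20 in VAT 20, miR-205-5p at 14.31 in SAT 14 and miR-150-5p at 16.72 in SAT 20, while miR-223-3p and miR-451a were higher in each VAT library than in any SAT library.

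VAT and SAT differed in 55 of the miRNAs tested at an adjusted p under 0.05 in limma's moderated test, which is 16.0% of them. Of these, 29 were higher in VAT (8.45% of those tested) and 26 lower (7.58%). The abundant miR-22-3p, miR-27b-3p, let-7f-5p, miR-222-3p, miR-221-3p and miR-146b-5p were among the higher ones, and let-7a-5p, let-7b-5p, let-7e-5p, miR-125a-5p and miR-335-5p among the lower ones. The change was 2-fold or more for 15 of the higher and 16 of the lower miRNAs, and the median over all tested miRNAs was 0.10 on the log2 scale, with 56.3% of them positive. Of the miRNAs tested, 61 passed the filter only with the help of the VAT libraries, since fewer than 3 SAT and BAT libraries were above the lowest value, and 8 only with the help of SAT. A miRNA taken in through 1 depot tends to be higher there, and these include 11 of the 29 called higher and 1 of the 26 called lower, so that their calls are given as a description. Over the other 282, the 61 being set aside, 49.3% were positive. No miRNA was set aside there for having been taken in through SAT. Of the miRNAs tested, 9 were at the lowest value in all 6 VAT and SAT libraries, and these were counted as not positive. For 135 miRNAs (39.4% of those tested), the 55 among them, every VAT library lay on the same side of every SAT library. At an unadjusted p under 0.05 with the fold change that the study's methods ask for, 122 miRNAs passed (35.6%), 71 higher and 51 lower.
The number of calls rests on single libraries. It was 0 without SAT 19 (104 miRNAs had an unadjusted p under 0.05 in limma's test), 5 without VAT 20, 12 without SAT 20, 23 without VAT 14, 37 without SAT 14 and 49 without VAT 17, and 11 without both VAT 20 and SAT 14. Because the depots do not overlap for any of the 55, leaving out libraries could not turn their sign. The balance of directions moved with base composition, which is described further on: after a trend over G and C content was removed, 8 were called higher and 23 lower, against 29 and 23 in the same 288 miRNAs. With values relative to miR-191-5p, a miRNA used as a reference in the study, 2 were called, both higher.

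**Figure D2:**
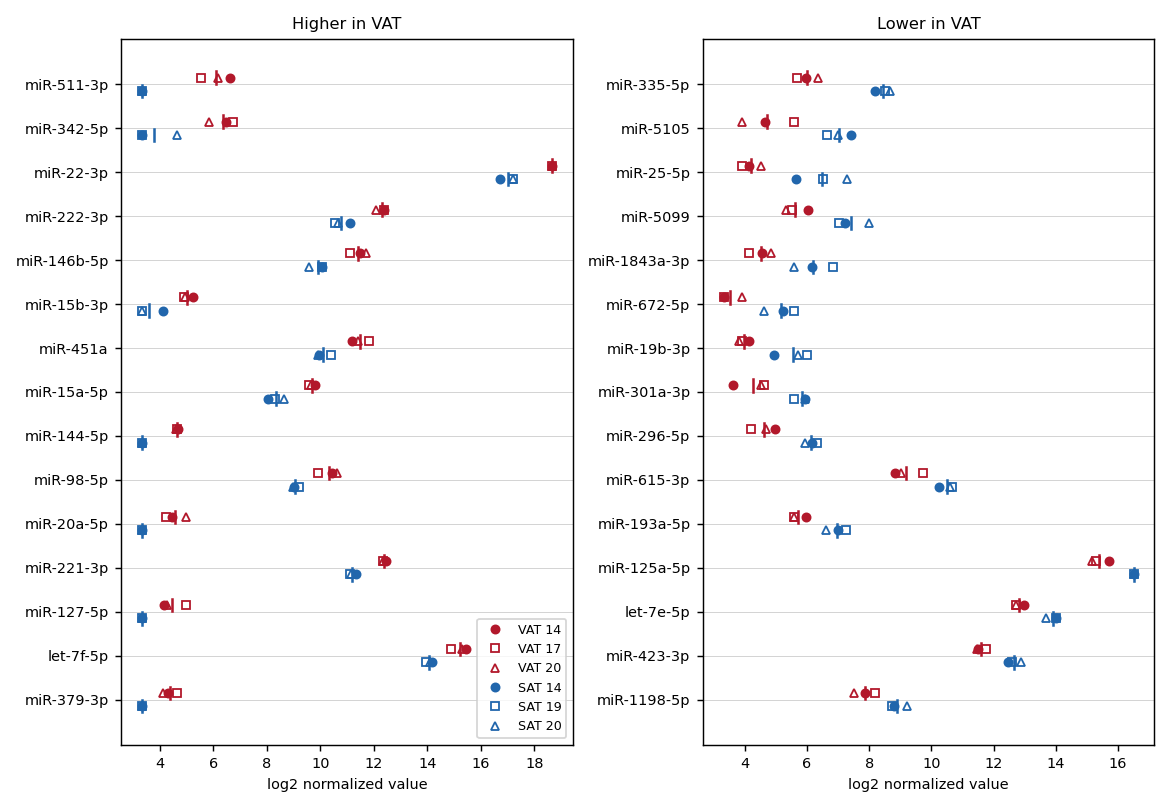
Log2 normalized values (x axis) in each library of the 15 miRNAs with the largest change higher in VAT (left) and the 15 lower in VAT (right) among the 55 called, with a bar at each depot mean. The VAT and SAT symbols of each miRNA do not overlap, and for miR-511-3p, miR-144-5p, miR-20a-5p, miR-127-5p and miR-379-3p the SAT symbols sit at the lowest value, 3.32.

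**Figure D3:**
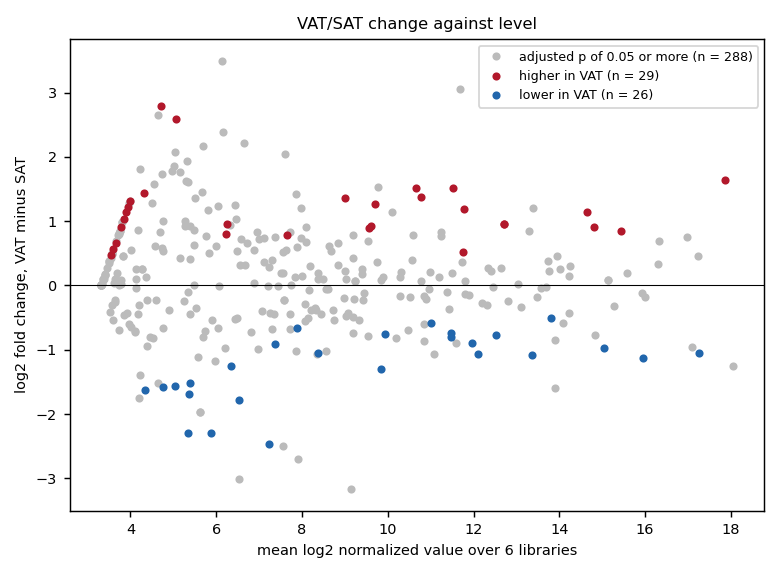
Log2 fold change of VAT over SAT (y axis) against the mean log2 value over the 6 libraries (x axis) for each tested miRNA, with calls in colour. Calls of both directions occur at the highest levels (11 higher and 11 lower among the 86 miRNAs with the highest means), whereas 9 of the 10 calls among the 86 with the lowest means are higher in VAT, and the filter took in 61 miRNAs only with VAT values against 8 only with SAT values.

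MiR-22-3p was the miRNA with the highest value in each VAT library. It is an abundant miRNA of many tissues whose hairpin lies at chr11:75463716-75463810 (+) in an exon of a transcript of Tlcd2. It was 18.67 in VAT 14, VAT 17 and VAT 20, and 16.72, 17.20 and 17.20 in SAT 14, SAT 19 and SAT 20. All VAT libraries were above all SAT libraries (log2 fold change 1.64, standard error 0.16, adjusted p = 0.0144). Since every library has the same highest value, a miRNA at the top cannot go above it. The other arm, miR-22-5p, was 8.11, 7.60 and 7.999 in VAT and 7.27, 7.54 and 7.24 in SAT (log2 fold change 0.56, adjusted p = 0.0986). In SAT the top miRNA was let-7c-5p, at 18.67 in the 3 libraries. The remaining miRNAs of the 5 with the highest means were let-7a-5p, miR-26a-5p and miR-181a-5p. Of these, miR-26a-5p had a log2 difference of 0.45 (adjusted p = 0.117) and miR-181a-5p one of -0.95 (adjusted p = 0.0863). The reference miR-191-5p was 15.56 to 16.18 in VAT and 15.87 to 16.38 in SAT (log2 fold change -0.17, adjusted p = 0.641).

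The X-linked pair miR-221 and miR-222 was higher in VAT. Both share the seed GCUACAU, restrain the cell-cycle inhibitor Cdkn1b and are reported to inhibit adipocyte differentiation. Their hairpins lie close together outside annotated genes, Mir221 at chrX:19146294-19146388 (-) and Mir222 at chrX:19146893-19146971 (-). MiR-221-3p was 12.45, 12.34 and 12.34 in VAT 14, VAT 17 and VAT 20, and 11.34, 11.10 and 11.15 in SAT 14, SAT 19 and SAT 20. The 3 values of each depot lay within 0.24 of each other and 2.27-fold apart between depots (log2 fold change 1.18, standard error 0.10, adjusted p = 0.0144). MiR-222-3p was 12.40, 12.40 and 12.07 in VAT and 11.11, 10.54 and 10.65 in SAT. Its log2 fold change was 1.52 (standard error 0.20, adjusted p = 0.0235). The other arm, miR-221-5p, had the largest difference in the comparison, with 8.55, 7.64 and 7.49 in VAT and 6.55, 3.32 and 3.32 in SAT. It did not pass (log2 fold change 3.49, adjusted p = 0.0851), and SAT 14 was apart from the other SAT libraries. MiR-221-5p was taken in by the filter only with its VAT values, so its difference is given as a description.

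Of the 33 miRNAs listed as inhibitors of adipocyte differentiation, 18 were tested, of which 4 (22.2%, against 8.45% of all tested) were higher in VAT and none was lower. Of the 18, 11 (61.1%) were positive, a share near the 56.3% of all tested, and their median log2 fold change was 0.72. Besides miR-221-3p and miR-222-3p, both arms of miR-27b, which is reported to repress the adipogenic factor Pparg, were higher. The 4 are thus neighbours or arms of the same hairpin, and not 4 separate loci. MiR-27b-3p was 15.30, 15.02 and 15.47 in VAT and 14.52, 14.31 and 14.24 in SAT. It was 1.87-fold higher in VAT (log2 fold change 0.91, standard error 0.16, adjusted p = 0.0276). MiR-27b-5p was 7.01, 6.47 and 6.71 in VAT and 5.77, 5.60 and 5.94 in SAT (log2 fold change 0.96, adjusted p = 0.0305). Mir27b lies at chr13:63300712-63300784 (+), in an exon of the transcript 2010111I01Rik. Of the 84 hairpins with both arms tested, it alone had calls on both arms. MiR-27a-3p has the same seed, UCACAGU, and comes from another chromosome. It was 12.65, 12.25 and 12.40 in VAT and 12.81, 12.12 and 12.45 in SAT, so that the depots overlapped (log2 fold change -0.02).
Among the 33 tested miRNAs listed as promoters of adipocyte differentiation, 1 was higher in VAT and 3 were lower, with a median log2 fold change of 0.18. The 12.1% called is below the 16.0% over all tested. The higher one was miR-20a-5p, which passed the filter only with its VAT values, and the lower ones were miR-103-3p, miR-210-3p and miR-30c-2-3p. MiR-103-3p, from introns of the pantothenate kinase genes Pank3 and Pank2 and studied for its effect on insulin sensitivity, was 13.51, 13.56 and 13.56 in VAT and 14.05 in each SAT library. Its change was small beside that of most called miRNAs (log2 fold change -0.51, standard error 0.07, adjusted p = 0.0235). MiR-107-3p, which shares its seed GCAGCAU, overlapped between depots (log2 fold change 0.18). MiR-210-3p, which hypoxia induces, was 7.42, 7.75 and 7.46 in VAT and 8.21, 8.29 and 8.14 in SAT (log2 fold change -0.67, adjusted p = 0.0305). MiR-30c-2-3p was 9.62, 9.52 and 9.57 in VAT and 10.13, 10.43 and 10.41 in SAT. It fell by 0.75 on the log2 scale (adjusted p = 0.0258), while the corresponding arm of the sister hairpin, miR-30c-1-3p, had 0.86 with overlapping libraries (adjusted p = 0.531).
Of the miRNAs that the study tied to endoplasmic reticulum (ER) stress, the response to unfolded proteins in the secretory pathway, 15 were tested, of which 1 was higher in VAT and 2 were lower, or 20.0% called, near the 16.0% of all tested. That list was made from VAT and BAT libraries of these samples, so it is not independent evidence of a direction. Its median log2 fold change was 0.13. The higher one was miR-222-3p, and the lower ones were miR-30c-2-3p and miR-125a-5p. MiR-143-3p, an abundant miRNA of fibroblasts and smooth muscle, was 16.38, 16.51 and 16.51 in VAT and 16.38, 16.02 and 16.02 in SAT, so that SAT 14 reached VAT 14 (log2 fold change 0.33, adjusted p = 0.16). MiR-455-3p was 7.35, 8.70 and 6.30 in VAT and 7.94, 7.92 and 6.48 in SAT, with overlapping depots.
Of 15 tested miRNAs linked with insulin action, miR-223-3p and miR-144-5p were higher and miR-103-3p lower (20.0% called, near the 16.0% of all tested), with a median log2 fold change of 0.27. MiR-144-5p passed the filter only through VAT. In the miR-29 family, whose targets include collagens, 0 of 4 were called, against 16.0% of all tested. In that family 1 had an unadjusted p under 0.05 in limma's test. MiR-29a-3p, its most abundant member, had a log2 fold change of -0.03, and miR-29c-3p was 8.31, 8.55 and 8.92 in VAT and 6.16, 8.17 and 7.81 in SAT (log2 fold change 1.21, adjusted p = 0.208). In the miR-181 family 0 of 7 were called, again against 16.0% of all tested, with 2 at an unadjusted p under 0.05 in limma's test.

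Among miRNAs of macrophages and inflammation, 3 of 10 tested were higher in VAT (30.0%, against 8.45% of all tested) and none was lower. Of the 10, 5 passed the filter only with their VAT values, among them 1 of the 3, miR-511-3p, and the median log2 fold change was 0.85 over the remaining 5 and 0.89 over the 10. The summed level of the list, on the log2 scale, was 13.90 to 14.46 in VAT and 13.18 to 13.53 in SAT, most of it from miR-21a-5p, which is not particular to macrophages and did not pass. Without miR-21a-5p the sum was 12.30 to 12.62 in VAT and 11.47 to 11.69 in SAT. MiR-511-3p comes from an intron of Mrc1, the mannose receptor of tissue macrophages, at chr2:14261003-14261081 (+). It was 6.62, 5.53 and 6.19 in VAT 14, VAT 17 and VAT 20, and at the lowest value in all 3 SAT libraries. The BAT libraries did not list it above that value either, so it entered the comparison through VAT alone, and its call is no test. The difference to the lowest value was 2.79 on the log2 scale. With every value under 5.20, the smallest listed in SAT 19, raised to it, an alternative chosen after seeing the data, the difference was 0.91 and did not pass. Its other arm, miR-511-5p, was 4.92, 5.24 and 4.92 in VAT and 4.55, 3.32 and 5.60 in SAT, so that the depots overlapped.
MiR-146b-5p, a feedback inhibitor of inflammatory signalling through NF-kB, was 11.48, 11.10 and 11.70 in VAT and 10.05, 10.08 and 9.59 in SAT. It was 2.86-fold higher in VAT (log2 fold change 1.52, standard error 0.22, adjusted p = 0.0235). MiR-146a-5p has the same seed, GAGAACU. It was 9.71, 9.45 and 9.59 in VAT and 8.45, 7.85 and 10.08 in SAT, where SAT 20 was above the VAT libraries (log2 fold change 0.79, adjusted p = 0.42). MiR-223-3p, a miRNA of myeloid cells from chromosome X, was 10.38, 10.02 and 9.85 in VAT and 9.27, 9.19 and 8.997 in SAT. It was 1.90-fold higher in VAT (log2 fold change 0.93, adjusted p = 0.0305). MiR-21a-5p, which rises in many inflamed tissues, was 13.84, 13.32 and 14.02 in VAT and 12.89, 12.65 and 13.09 in SAT, without overlap (log2 fold change 0.85, adjusted p = 0.07).
Among 6 miRNAs of lymphoid cells and leukocytes in general, 16.7% were called, near the 16.0% of all tested, and the call was miR-342-5p. It comes from an intron of Evl, a gene of actin dynamics, at chr12:108658620-108658718 (+). It was 6.48, 6.74 and 5.85 in VAT and 3.32, 3.32 and 4.64 in SAT (log2 fold change 2.59), and with values under 5.20 raised to it the change was 1.15. It too passed the filter only with its VAT values. The more abundant arm, miR-342-3p, was 11.65, 11.88 and 11.38 in VAT and 10.65, 10.29 and 11.65 in SAT, where SAT 20 reached the VAT values. The other members did not share a direction: miR-150-5p, a lymphocyte miRNA, had -1.59, and miR-142-5p, found in all leukocytes, was 9.76, 10.13 and 9.80 in VAT and 7.87, 7.85 and 11.88 in SAT. The leukocyte miRNAs miR-150-5p, miR-142-5p and miR-142-3p were each highest in SAT 20. Whether the number of leukocytes had a part in these differences was not tested.
Of 4 tested red-cell miRNAs, 2 were higher in VAT (50%, against 8.45% of all tested), 1 of them, miR-144-5p, taken in by the filter through VAT alone. Of the 3 that did not need their VAT values to pass the filter, 1 was called. The 2 higher ones, miR-451a and miR-144-5p, come from the same locus and are not separate. MiR-451a, which is cut by Argonaute 2 rather than Dicer, and miR-144 share a locus at chr11:78073005-78073241 (+). MiR-451a was 11.18, 11.81 and 11.41 in VAT and 9.95, 10.38 and 9.93 in SAT, and so 2.60-fold higher (log2 fold change 1.38, standard error 0.22, adjusted p = 0.0276). MiR-144-5p was 4.69, 4.64 and 4.59 in VAT and at the lowest value in SAT (log2 difference 1.32), so that it lay below the smallest value listed in SAT 19. MiR-486-5p, the most abundant of the list, was 14.95, 15.78 and 14.81 in VAT and 15.23, 15.23 and 14.81 in SAT (log2 fold change 0.09, adjusted p = 0.87). The endothelial miR-126-3p was 13.09, 13.09 and 12.98 in VAT and 13.18, 13.18 and 12.74 in SAT (log2 fold change 0.02).
Of the 4 tested muscle miRNAs and the 5 tested epithelial miRNAs of the lists, 0 were called, against 16.0% of all tested. Of these, 0 had an unadjusted p under 0.05 in limma's test. The single tested liver miRNA, miR-122-5p, was at the lowest value in 5 of the 6 libraries.

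The let-7 family split between the depots although its members carry the same seed, GAGGUAG. Let-7 miRNAs hold back growth and cell-cycle genes such as Hmga2 and are themselves held back by Lin28. Of the 9 members tested for the 5p arm with this seed, let-7a-5p, let-7b-5p and let-7e-5p were lower in VAT and let-7f-5p and miR-98-5p higher. Let-7a-5p was 16.90, 16.90 and 16.38 in VAT 14, VAT 17 and VAT 20, and 17.77 in each SAT library (log2 fold change -1.04, standard error 0.17, adjusted p = 0.0276). Let-7b-5p was 14.75, 14.52 and 14.41 in VAT and 15.56, 15.56 and 15.47 in SAT (log2 fold change -0.97, standard error 0.12, adjusted p = 0.0235). Let-7e-5p was 12.98, 12.74 and 12.74 in VAT and 14.02, 14.02 and 13.69 in SAT (log2 fold change -1.09, standard error 0.14, adjusted p = 0.0235). For these 3, each SAT library was above each VAT library.
In the opposite direction, let-7f-5p was 15.47, 14.88 and 15.30 in VAT and 14.18, 13.94 and 14.11 in SAT (log2 fold change 1.14, standard error 0.18, adjusted p = 0.0276). MiR-98-5p was 10.43, 9.93 and 10.61 in VAT and 9.03, 9.19 and 8.96 in SAT (log2 fold change 1.26, standard error 0.21, adjusted p = 0.0276). For both, the lowest VAT library was above the highest SAT library. The remaining members did not pass. Let-7c-5p was 17.77, 17.77 and 16.72 in VAT against 18.67 in each SAT library (log2 fold change -1.25, adjusted p = 0.0646). Let-7d-5p had -0.58 (adjusted p = 0.0646), let-7g-5p 0.22 and let-7i-5p 0.45.
Counted from 1 at the 5' end of let-7a-5p, let-7f-5p differs from it by the substitution G12A, let-7c-5p by A19G, let-7e-5p by U9G, let-7b-5p by A17G and A19G, and miR-98-5p by G11A and A19U. The members that were higher, let-7f-5p and miR-98-5p, have 31.8% G and C, and those that were lower have 36.4% to 45.5%. The authors shared reads with several places, and values of members that differ by 1 base are less certain than others.
The genes cut across the split as well. On chromosome 13 the hairpins of let-7a-1, let-7f-1 and let-7d lie together at chr13:48536012-48538272 (-), in exons of the transcript 6720427I07Rik, and this cluster held 1 miRNA called higher (let-7f-5p) and 2 called lower (let-7a-5p and let-7d-3p). Let-7d-3p was 12.20, 12.20 and 12.004 in VAT and 12.65, 13.09 and 12.98 in SAT (log2 fold change -0.78, adjusted p = 0.0307). Let-7f-5p also comes from let-7f-2, which lies with miR-98 in an intron of Huwe1 at chrX:151912346-151913321 (+), and the mature sequence does not tell the 2 sources apart.

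**Figure D4:**
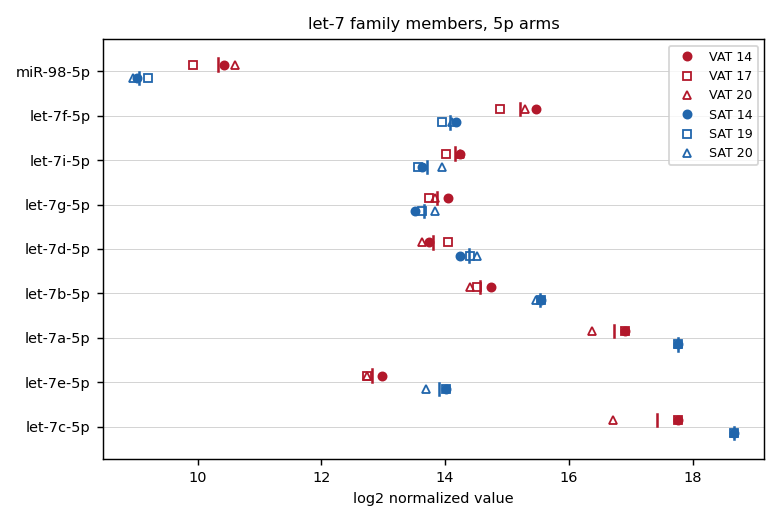
Log2 normalized values (x axis) of 9 let-7 family members in each library, ordered by their VAT/SAT change, with a bar at each depot mean. VAT values lie to the right of SAT values for miR-98-5p and let-7f-5p and to the left of them for let-7b-5p, let-7a-5p, let-7e-5p and let-7c-5p.

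Other miRNAs with a common seed also parted. Of the seed AAGCUCG, miR-99a-3p was higher in VAT (6.72, 6.74 and 6.42 against 5.51, 6.01 and 5.94 in SAT, log2 fold change 0.80, adjusted p = 0.0448) and miR-99b-3p lower (6.91, 7.04 and 6.78 against 7.99, 7.65 and 7.81, log2 fold change -0.91, adjusted p = 0.0235). Of the seed CCCUGAG, miR-125a-5p and miR-351-5p were lower and miR-125b-5p had a log2 fold change of 0.26. MiR-125a-5p, a relative of the developmental regulator lin-4, was 15.70, 15.30 and 15.16 in VAT and 16.51 in each SAT library (log2 fold change -1.12, standard error 0.16, adjusted p = 0.0235). It shares a locus on chromosome 17, at chr17:17830352-17830879 (+) within Spaca6, with let-7e, which moved in the same direction. MiR-351-5p was 11.75, 11.51 and 11.29 in VAT and 12.50, 12.45 and 12.25 in SAT.
Of the seed AGCAGCA, which represses the survival gene Bcl2, miR-15a-5p was called. It was 9.80, 9.59 and 9.65 in VAT and 8.04, 8.29 and 8.63 in SAT (log2 fold change 1.36, standard error 0.18, adjusted p = 0.0235). The more abundant miR-16-5p was 13.94, 13.69 and 14.31 in VAT and 12.25, 12.89 and 13.18 in SAT, without overlap (log2 fold change 1.20, adjusted p = 0.0592). MiR-15b-5p went the other way without passing (log2 fold change -1.06, adjusted p = 0.0864), and its passenger arm miR-15b-3p was called higher, having passed the filter only with its VAT values, with 5.24, 4.91 and 4.92 in VAT against 4.13, 3.32 and 3.32 in SAT, values near the lowest. With values under 5.20 raised to it, the change of miR-15b-3p was 0.01.
Of the seed AGUGCAA, miR-301a-3p was 3.63, 4.64 and 4.51 in VAT and 5.94, 5.60 and 5.94 in SAT (log2 fold change -1.57, adjusted p = 0.0326). MiR-130b-3p, with the same seed, had 2.08 in the other direction without passing (adjusted p = 0.0863). It was taken in by the filter only with its VAT values, so its direction is a description. MiR-130a-3p, the most abundant of the 3, had 0.19. In the miR-17-92 cluster on chromosome 14, miR-20a-5p was called higher (4.46, 4.21 and 4.97 in VAT, the lowest value in SAT) and miR-19b-3p lower (4.16, 3.92 and 3.83 in VAT, 4.94, 6.01 and 5.71 in SAT, log2 fold change -1.58). Both lay close to the lowest value, and miR-20a-5p passed the filter only with its VAT values. With values under 5.20 raised to it, miR-301a-3p had -0.63 and miR-19b-3p -0.43.

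Among the miRNAs lower in VAT, miR-335-5p changed most. Its hairpin lies in an intron of Mest, an imprinted gene whose expression in fat is known to go with adipocyte size, at chr6:30741299-30741396 (+). It was 5.96, 5.67 and 6.34 in VAT 14, VAT 17 and VAT 20, and 8.18, 8.50 and 8.68 in SAT 14, SAT 19 and SAT 20. The difference was 5.52-fold (log2 fold change -2.46, standard error 0.23, adjusted p = 0.0144). The more abundant arm, miR-335-3p, was 10.53, 10.38 and 10.70 in VAT and 11.51, 10.87 and 11.05 in SAT, without overlap and without passing (log2 fold change -0.61, adjusted p = 0.109). MiR-296-5p, from the imprinted Gnas region at chr2:174267047-174267125 (-), was 4.98, 4.21 and 4.68 in VAT and 6.16, 6.32 and 5.94 in SAT (log2 fold change -1.52, standard error 0.23, adjusted p = 0.0258). Its neighbour miR-298-5p had -1.02 and did not pass. The 4 tested miRNAs of these imprinted loci were all lower in the VAT mean, where 56.3% of all tested had a positive change. Of the 4, 2 were called lower, against 7.58% of all tested. The 4 are both arms of miR-335 and the neighbours miR-296-5p and miR-298-5p, and so not 4 separate loci.
At the imprinted Dlk1-Dio3 locus on chromosome 12, no miRNA was called that passed the filter without its VAT values. Of 34 tested miRNAs there, 26 had a positive log2 fold change (76.5%, against 56.3% of all tested) and 8 a negative one, with a median of 0.36. Of the 34, 4 (11.8%, against 8.45% of all tested) were called higher and none lower. Of the 34, 12 passed the filter only with their VAT values, the 4 called among them. Of the other 22, 14 were positive and 0 were called, with a median of 0.24. The 4 calls, miR-127-5p, miR-379-3p, miR-409-5p and miR-380-3p, were at the lowest value in each SAT library and between 3.63 and 4.97 in VAT, below the smallest value listed in SAT 19. The most abundant member named here, miR-127-3p, was 14.52, 14.31 and 14.11 in VAT and 14.75, 14.24 and 13.51 in SAT, with a log2 fold change of 0.15.
Several of the miRNAs with the largest decreases were passenger arms or late-numbered entries at low levels. MiR-25-5p, from Mir25 within Mcm7, was 4.16, 3.92 and 4.51 in VAT and 5.64, 6.52 and 7.30 in SAT (log2 fold change -2.29, adjusted p = 0.0356), while the main arm miR-25-3p had -0.34 and overlapped. MiR-5105 was 4.65, 5.60 and 3.92 in VAT and 7.41, 6.64 and 7.01 in SAT (log2 fold change -2.30, adjusted p = 0.0396). MiR-5099 was 6.04, 5.53 and 5.33 in VAT and 7.22, 7.04 and 7.999 in SAT (log2 fold change -1.79, adjusted p = 0.0305). MiR-1843a-3p had -1.68 and miR-672-5p -1.63. The latter passed the filter only with its SAT values, so its call is a description. With values under 5.20 raised to it, miR-25-5p had -1.28, miR-1843a-3p -0.9995 and miR-672-5p -0.14, and these 3 no longer passed.
At higher levels, miR-615-3p, which lies within the HoxC cluster, was 8.84, 9.74 and 9.01 in VAT and 10.23, 10.65 and 10.61 in SAT (log2 fold change -1.30, standard error 0.28, adjusted p = 0.0414). The Hox miRNA miR-196a-5p had the largest mean decrease in the comparison, -3.17, but did not pass (adjusted p = 0.228). It was 3.96, 9.57 and 9.16 in VAT 14, VAT 17 and VAT 20 and 10.93, 10.74 and 10.53 in SAT 14, SAT 19 and SAT 20, so that VAT 14 was apart. MiR-196b-5p was at the lowest value in VAT 14 as well, at 8.16 and 8.21 in VAT 17 and VAT 20, and at 9.57, 9.35 and 8.86 in SAT. Both were below every SAT library in each VAT library. Of the 7 tested miRNAs of the Hox clusters, 14.3% were called, near the 16.0% of all tested, and 3 were positive (42.9%, against 56.3%). MiR-10a-5p had 0.70 and miR-10a-3p 1.28, neither called, and miR-10a-3p passed the filter only with its VAT values. MiR-423-3p, from an intron of Nsrp1, was 11.51, 11.75 and 11.48 in VAT and 12.45, 12.59 and 12.89 in SAT (log2 fold change -1.06, adjusted p = 0.0235). MiR-193a-5p was 5.96, 5.60 and 5.57 in VAT and 6.995, 7.27 and 6.63 in SAT (log2 fold change -1.25, adjusted p = 0.0276), and its other arm miR-193a-3p had -0.79 without passing. MiR-1198-5p was 7.87, 8.18 and 7.51 in VAT and 8.79, 8.73 and 9.21 in SAT (log2 fold change -1.05, adjusted p = 0.0423). MiR-139-5p, miR-676-3p and miR-320-3p had log2 fold changes of -0.80, -0.74 and -0.58, each called.

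The remaining miRNAs higher in VAT included the fibroblast miRNA miR-199a-3p, whose sequence is that of miR-199b-3p, so that both have the same values. It was 13.25, 12.94 and 13.36 in VAT and 12.37, 12.30 and 12.04 in SAT (log2 fold change 0.95, standard error 0.16, adjusted p = 0.0276), while miR-214-3p of the same transcript, Dnm3os, had -0.17 and overlapped. MiR-192-5p, an epithelial miRNA, was 9.97, 10.08 and 9.97 in VAT and 9.40, 8.86 and 9.08 in SAT (log2 fold change 0.89, adjusted p = 0.029). Its neighbour miR-194-5p had 2.17 and did not pass. MiR-378a-3p, from an intron of Ppargc1b and the top miRNA of 2 of the 3 brown fat libraries, was 15.56, 16.18 and 15.87 in VAT and 15.02 in each SAT library. It was 1.80-fold higher in VAT than in SAT (log2 fold change 0.85, adjusted p = 0.0387). The other 6 tested brown-fat miRNAs did not pass, so that 14.3% of that list were called, near the 16.0% of all tested. MiR-361-5p and miR-186-5p, from introns of Chm and Zranb2, had log2 fold changes of 0.78 and 0.53. MiR-34c-3p and miR-3068-3p were at the lowest value in SAT and between 3.80 and 4.57 in VAT. Both entered the comparison through VAT alone, so their calls are a description and no test.
In all, SAT was at the lowest value in its 3 libraries for 9 of the 29 miRNAs called higher, and for 8 of these every VAT value was under 5.20, the smallest value in SAT 19. The reverse had no candidates among the miRNAs tested, of which 23 were above the lowest value in all 3 VAT and in no SAT library and 0 in all 3 SAT and in no VAT library. After every value under 5.20 was raised to it, 282 miRNAs still varied and 48 were called, 25 higher and 23 lower, and 37 of them were among the 55.
Of the called miRNAs, 18 of the 29 higher and 25 of the 26 lower were above the lowest value in all 6 libraries. The unequal smallest values still bear on those with levels under 5.20. MiR-25-5p, miR-301a-3p and miR-19b-3p are among them, and none of these passed after every value under 5.20 was raised to it. For 5 called miRNAs above the lowest value, miR-22-3p in VAT and miR-103-3p, miR-125a-5p, let-7a-5p and miR-378a-3p in SAT, the 3 libraries of a depot had identical values, because a given rank has nearly the same value in each library. Their spread in that depot is thus a matter of rank.

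Base composition went along with the VAT/SAT change. Of the miRNAs tested, 288 (84.0%) had a mature sequence in RefSeq. Across these, Spearman's rho between G and C content and log2 fold change was -0.34, and it was -0.35 for the 120 with a mean log2 value over 8, as a description across miRNAs, which share libraries and are not replicates. In the 35 miRNAs with 40% G and C or less the median log2 fold change was 0.85, with 9 called higher and 4 lower. It was 0.39 in 39 miRNAs with more than 40% and up to 45%, 0.25 in the next 93, up to 50%, 0.15 in the next 36, up to 55%, and -0.24 in the 85 above 55%, of which 0 were called higher and 8 lower. In a single library, rho between the deviation from the mean over the 6 libraries and G and C content was -0.29, -0.10 and -0.44 in VAT 14, VAT 17 and VAT 20 and 0.27, 0.21 and 0.13 in SAT 14, SAT 19 and SAT 20. The sign was thus negative in each VAT library and positive in each SAT library, so that composition and depot cannot be told apart.
Removing a linear trend over G and C content from each library left 31 calls. Of the 28 miRNAs with a sequence called higher, 7 were still called: miR-22-3p, miR-222-3p, miR-221-3p, miR-146b-5p, miR-15a-5p, miR-511-3p and miR-342-5p. The last, miR-342-5p, and miR-511-3p passed the filter only with their VAT values, so that their calls are a description and no test. Of the 23 called lower, 20 were, with miR-335-5p at -3.06, let-7a-5p at -1.51 and let-7e-5p at -1.46 on the log2 scale. Let-7f-5p and miR-98-5p, at 31.8% G and C, were no longer called.

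**Figure D5:**
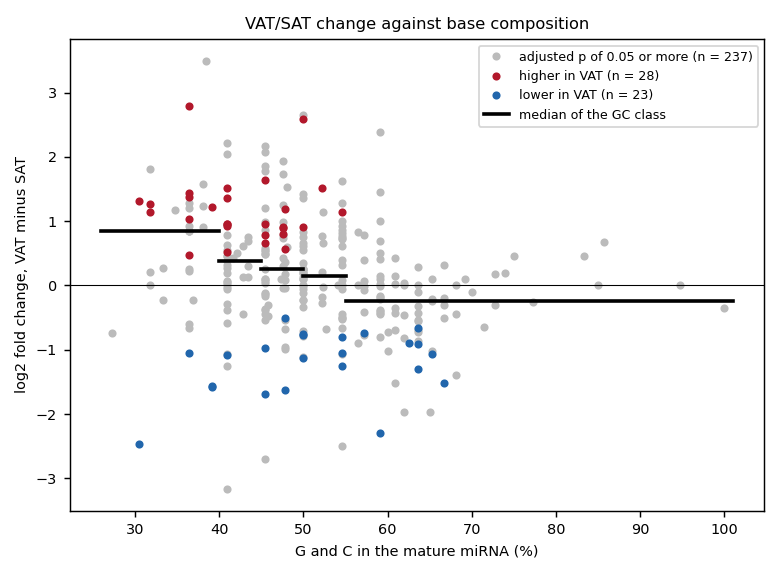
Log2 fold change of VAT over SAT (y axis) against the share of G and C in the mature sequence (x axis, %) for 288 miRNAs, with calls in colour and a line at the median of each composition class. The medians fall from 0.85 at 40% or less to -0.24 above 55%, where 8 calls are lower and 0 higher.

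The calls are set out here by genomic cluster and hairpin arm. Over all tested miRNAs 16.0% were called, and a cluster holds several miRNAs. Arms of the same sign were counted only for hairpins with a call. These counts therefore do not tell whether neighbours moved together more than other miRNAs. Of 31 clusters of hairpins no more than 10 kb apart with tested miRNAs, 18 held a called miRNA. In 6 of them 2 or more miRNAs were called in the same direction, as for miR-221 and miR-222, miR-144 and miR-451a, let-7f-2 and miR-98, and let-7e and miR-125a. MiR-144-5p passed the filter only with its VAT values, as did the 3 calls in the cluster from miR-379 to miR-410, another of the 6. In the cluster of miR-27b and miR-24-1, the 2 calls were the arms of miR-27b. In 2 of the 18 clusters calls went in both directions, the let-7 cluster on chromosome 13 and miR-17-92 on chromosome 14. For miR-17-92 the higher call, miR-20a-5p, passed the filter only with its VAT values. Among the 28 hairpins with both arms tested and an arm called, the other arm was called too for miR-27b, had the same sign in 22 and the opposite sign in 5. The opposite sign was seen for miR-15b, where the 3p arm was called higher and the 5p arm had -1.06, and for miR-125a, where the 5p arm was called lower and the 3p arm had 1.01. Across the 84 pairs of arms, Pearson's r of the log2 fold changes was 0.31 (Spearman's rho 0.26), a description across hairpins.
Levels in brown adipose tissue (BAT) of mice on the same diet, 3 libraries, set the called miRNAs in context. Its mean lay between those of VAT and SAT for 12 of the 29 miRNAs called higher in VAT, below both for 15 and above both for 2. For the 26 called lower it lay between them for 8, above both for 9 and below both for 9. MiR-146b-5p was 6.04 to 7.84 in BAT, below both white depots, miR-335-5p, miR-223-3p and miR-511-3p were at the lowest value in the 3 BAT libraries, and miR-5105 was 11.10 to 12.20, above both.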

How the data were processed

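Frozen VAT, SAT and BAT were homogenized in QIAzol, total RNA was isolated with an RNeasy Mini Kit, and small RNA was sequenced. The labels name an Illumina Genome Analyzer II and the study's methods a NextSeq instrument. The authors mapped reads to miRBase precursors, counted mature miRNAs with proportional sharing of reads that fit several precursors, divided counts by the usable reads of the library and added an offset of 40. The build was mm10 per the labels. The deposited values are on a log2 scale; before log2 the lowest is 10 rather than 40, and the values at a given rank are nearly equal in each library, a pattern left by quantile normalization. No read counts are given, so depth and counting error are unknown and the spread of 3 libraries is the measure of precision.

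Values were used as deposited. Of 1251 miRNAs, 839 were at the lowest value in all 9 libraries, 908 (the 839 among them) were above it in fewer than 3 and were left out, and the rest were tested. VAT and SAT were compared on their 6 libraries with limma 3.58.1 (lmFit and eBayes, two-sided, no covariate) in R 4.3.3, with Benjamini-Hochberg adjustment over all tested miRNAs and a threshold of 0.05. Log2 fold changes are VAT minus SAT. The study's methods name a per-miRNA test with a fold threshold, which was run as an alternative without moderation. Counts of miRNAs per library were compared by exact permutation (scipy 1.17.1). Fits were checked on simulated data. Hairpin positions and host genes are from GENCODE M21 (GRCm38, the assembly of mm10), mature sequences from RefSeq.

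Named miRNAs are the 15 higher and 15 lower with the largest change among those called without overlap, their other arms, per list the called members and the tested member with the largest change, the 5 with the highest means, and miR-191-5p; other names (among them miR-196b-5p, miR-16-5p, miR-146a-5p, miR-142-5p, miR-194-5p and the miRNAs of shared seeds) were chosen after their values were seen. The members, lists and alternatives were chosen with earlier results of these data known. Replicate numbers come from the sample titles, and the main test did not use them to pair samples. Deviations of same-numbered VAT and SAT libraries correlated at -0.05 (14) and -0.14 (20). Libraries of different numbers had -0.13 to 0.19. With so few libraries, these values can neither show nor exclude that same-numbered libraries share a mouse. The mRNA sequencing was not analysed here.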

Additional observations from a re-analysis of the deposited data

How the results depend on the processing

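The count of 55 calls moved by more than 1.5 times in these settings: 4 without a filter, 2 relative to miR-191-5p, 30 in a fit of all 9 libraries, 31 without moderation, and, chosen after seeing the data, 31 with the G and C trend removed and 11 without VAT 20 and SAT 14. With the replicate block by number 55 were called and with the replicate block by order 0 (105 at an unadjusted p under 0.05 in limma's test); the block by order uses pairs that the labels do not state. Leaving out single libraries gave 0 to 49 calls. The 122 at the study's thresholds became 73 in the upper part of the miRNAs by mean, 98 without moderation, closest to the study's own kind of test, and 91 to 114 with a library left out. The difference of 71 in miRNAs above the lowest value was -1.33 above 40 before log2, 1 above 100 (counts that the normalization nearly fixes), and 59.2 to 81.7 with a library left out. Without the filter, miRNAs without a value enter the adjustment; the cause of the other shifts was not tested. MiR-380-3p was at -0.00073 with the G and C trend removed; most settings could not turn a sign, since the depots do not overlap for any of the 55. Over the settings that could be run, 29 of the 55 were past the threshold in more than 50% and 26 in 50% or fewer, from miR-380-3p in 4 of 21 and miR-99a-3p in 5 of 23 to miR-22-3p in 19 of 24 and miR-221-3p in 21 of 24. Of the alternative values of the named miRNAs, 1353 kept side and direction, 478 lost the threshold and 22 gained it. Values relative to miR-191-5p moved the median of all tested miRNAs from 0.10 to 0.27, and the lowest value subtracted with 1 added moved it to 0.21.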

Other observations

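Among miRNAs that did not reach the filter, 53 were above the lowest value in some VAT or SAT library, 42 of them in VAT but no SAT library and 5 in SAT but no VAT library. The highest values were 7.04 for the epithelial miR-429-3p in SAT 14, which was 6.63 in VAT 20 and at the lowest value in the other 4 libraries, and 6.33 for miR-211-5p in SAT 20. MiR-200c-3p, a relative of miR-429-3p, was 5.94 in SAT 14 and at the lowest value in the other 5. These miRNAs were chosen after their values were seen and have no test.

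Within a depot, the range over the 3 libraries had a median of 0.52 in VAT and 0.67 in SAT on the log2 scale. In SAT, the library farthest from the others for miRNAs with a range over 2 was SAT 19 in 23, SAT 14 in 22 and SAT 20 in 14, and in VAT it was VAT 20 in 7, VAT 14 in 2 and VAT 17 in 2. VAT 20 was the far library for 3 VAT ranges over 5, SAT 14 for 3 SAT ranges over 5.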
